A study of Mus musculus with 8 samples.

Results

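The genes described here are 31 genes known chiefly from pancreas and liver, read in RNA from whole small intestine of mouse embryos. They were chosen by gene symbol from the single deposited expression table, and all 31 were found among its 55681 genes. Pancreas genes make up 17 of them: 9 enzymes and cofactors of the acinar cell, 5 transcription factors and 3 islet hormones. Liver genes make up the other 14: 9 plasma proteins, 4 clotting factors and 1 enzyme of the urea cycle. The question was whether pancreatic and hepatic transcripts varied together across the intestines or apart from each other.

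Acinar cells of the pancreas make digestive enzymes and store them as inactive precursors, and the transcription factors Ptf1a, Rbpjl and Bhlha15 (Mist1) maintain that program. The fetal liver secretes albumin, alpha-fetoprotein, transferrin, transthyretin, antitrypsin and clotting factors into the blood. Both organs bud from the foregut endoderm beside the duodenum, and some of these genes are also used by gut cells: Pdx1 in the duodenal epithelium, Afp in fetal gut endoderm and Cps1 in the intestinal epithelium.

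The 8 libraries came from whole small intestines at E15.5 on a C57BL6J background, each from its own embryo per the series design. The 4 controls carried Slmapfl/fl, the floxed allele on its own. The 4 libraries labelled Slmap-cKO carried Slmapfl/fl together with a Cre that the labels write as Derom-Cre and as Dermo-Cre, named for a driver of mesenchymal cells, so epithelial cells would keep Slmap. Values are FPKM as deposited, which scale sequenced fragments by the length of the gene and the size of the library, and libraries are called control 1 to 4 and cKO 1 to 4 after their labels.

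Slmap, which encodes a membrane protein of the STRIPAK phosphatase complex, lay at 23.6, 23.3, 25.4 and 24.2 FPKM in controls 1 to 4 and at 25.5, 23.5, 26.5 and 26.3 FPKM in cKO 1 to 4. The groups overlapped, so the gene's total level does not check the labels, and every direction below rests on them. Recovered reads summed to between 15663837 and 17806397 per library. Controls 3 and 4 had reads in 25832 and 25934 genes against 23883 to 24071 in the other 6 libraries. In cKO 2 the maturing enterocyte genes Lct (lactase) and Apoa4 stood at 4.05 and 11.1 FPKM, against 26.7 to 60.2 and 86.5 to 253 FPKM in the other libraries, and the embryonic globin Hbb-y stood at 29.6 against 1.97 to 5.20 FPKM. The label of small intestine was matched by its markers: Vil1 (villin) lay at 68.4 to 136 FPKM and Cdx2 at 52.8 to 91.6 FPKM, and 19 of 20 gut epithelium genes averaged 1 FPKM or more, against 0 of 11 stomach genes.

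Promoters of 6 members are shown because they carry the contrasts described below. They are 4 acinar enzymes, and Alb and Afp, neighbours on chromosome 5 of which only Afp was expressed well above 1 FPKM. Levels of the 4 enzymes correlated across libraries to different degrees, from r = 0.588 (Cpa1 with Cela2a) to r = 0.955 (Prss1 with Ctrb1). Each is the 250 bases before the transcription start, from RefSeq on GRCm38.p6, an older build than that of the table, read 5′ to 3′ on the gene's strand. Capitals mark matches, on either strand, to 6 motifs that are spelled out after the sequences.
Ctrb1: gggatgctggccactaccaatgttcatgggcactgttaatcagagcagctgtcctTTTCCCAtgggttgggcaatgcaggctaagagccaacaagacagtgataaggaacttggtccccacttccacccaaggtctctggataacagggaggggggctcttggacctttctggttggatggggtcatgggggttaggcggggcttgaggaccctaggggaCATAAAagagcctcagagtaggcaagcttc
Cpa1: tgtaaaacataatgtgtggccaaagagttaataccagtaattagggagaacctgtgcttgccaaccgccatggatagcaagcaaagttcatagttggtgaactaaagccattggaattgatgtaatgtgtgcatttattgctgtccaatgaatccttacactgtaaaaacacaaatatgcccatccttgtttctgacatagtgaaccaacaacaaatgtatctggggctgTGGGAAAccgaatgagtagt
Cela2a: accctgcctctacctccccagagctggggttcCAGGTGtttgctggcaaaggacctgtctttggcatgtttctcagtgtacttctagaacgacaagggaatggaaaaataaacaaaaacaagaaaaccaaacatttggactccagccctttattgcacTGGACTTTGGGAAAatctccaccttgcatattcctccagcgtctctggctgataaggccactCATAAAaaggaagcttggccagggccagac
Prss1: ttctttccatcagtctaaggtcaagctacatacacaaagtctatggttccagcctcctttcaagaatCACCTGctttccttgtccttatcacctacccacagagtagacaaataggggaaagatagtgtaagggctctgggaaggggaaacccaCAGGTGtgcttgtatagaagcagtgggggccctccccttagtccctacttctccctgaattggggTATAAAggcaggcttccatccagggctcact
Alb: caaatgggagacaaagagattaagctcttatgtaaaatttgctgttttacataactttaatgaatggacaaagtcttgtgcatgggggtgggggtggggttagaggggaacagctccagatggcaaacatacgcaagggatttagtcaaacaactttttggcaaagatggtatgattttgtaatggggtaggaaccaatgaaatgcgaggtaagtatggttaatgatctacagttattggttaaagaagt
Afp: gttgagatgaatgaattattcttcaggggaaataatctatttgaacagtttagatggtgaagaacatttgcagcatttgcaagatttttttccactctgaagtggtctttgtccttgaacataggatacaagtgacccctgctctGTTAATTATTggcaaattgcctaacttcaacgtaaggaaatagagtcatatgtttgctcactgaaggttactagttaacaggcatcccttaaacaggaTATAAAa
These windows lie at chr8:111691011-111691260 (minus strand) for Ctrb1, chr6:30638968-30639217 (plus) for Cpa1, chr4:141826006-141826255 (minus) for Cela2a, chr6:41458680-41458929 (plus) for Prss1, chr5:90460620-90460869 (plus) for Alb and chr5:90490464-90490713 (plus) for Afp. In windows of 300 bases, which add the 50 bases after the start, promoters were held for 26 of the 31 members.

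The PTF1 TC-box (TTTCCCA) was found in 3 of 8 acinar enzyme promoters (Ctrb1, Cpa1 and Cela2a), 1 of 11 liver promoters (Fgb) and 8.06% of all 32851 promoters of that length. The PTF1 E-box (CACCTG) was found in 4 of 8 acinar enzyme promoters (Cela1, Cela2a, Cela3b and Prss1), 0 of 11 liver promoters and 20.2% of all promoters. Among these 2 kinds of match, Cela2a was the enzyme that held both. A TATA box (TATAAA) was found in 4 of 8 acinar enzyme promoters, among them Prss1 and Cela1, and in 13.6% of all promoters. Of 11 liver promoters 1 held these letters, that of Afp, at position -7. The HNF1 motif, 10 letters with 1 free base, was found in Afp, where it stands in capitals at position -105 (counted from -1 just before the start), in no other member's window, and in 0.399% of all promoters. The HNF4 motif (CAAAGTCCA) was found in Cela2a, where it overlaps the TC-box, and in 0.475% of all promoters. The CDX motif (TTTATG), that of the intestinal caudal factors, was found in 2 of 8 acinar enzyme promoters (Ctrb1 and Cela2a), 3 of 11 liver promoters, Serpina1a and Serpina1b among them, and 11.9% of all promoters. Both acinar matches read CATAAA at position -30, where Amy2a5 and Pnlip have their TATA box. The match of letters therefore does not mark them as caudal sites. No full match to any motif of the 6 was found in the Alb window. That window does hold, near its end, a stretch that differs from the HNF1 motif in the last letter only. Near matches were not counted in any promoter, and whether this stretch is an HNF1 site was not tested. The search therefore does not show that the Alb promoter lacks such a site. All matches given here are matches of letters and show no binding.

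Ctrb1, which encodes the digestive protease precursor chymotrypsinogen B, was the most abundant pancreas gene and ranked 97 among all genes by mean FPKM. The gene lies at chr8:112413151-112417642 on the minus strand (GRCm39). Its level was 536, 278, 263 and 268 FPKM in controls 1 to 4 and 544, 169.8, 105 and 177 FPKM in cKO 1 to 4. Control 1 and cKO 1 stood far above the other libraries and almost level with each other, and the groups overlapped across the whole control range.

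Clps encodes colipase, the cofactor of pancreatic lipase. Its levels were 94.1, 62.0, 63.0 and 57.7 FPKM in controls 1 to 4 and 95.5, 31.9, 17.8 and 34.9 FPKM in cKO 1 to 4. Cpa1, the pancreatic carboxypeptidase A1, lay at 58.1, 38.8, 38.0 and 39.9 FPKM in controls 1 to 4 and at 72.2, 41.9, 9.99 and 22.0 FPKM in cKO 1 to 4. For both genes the top pair was again control 1 and cKO 1, and cKO 3 was lowest.

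Prss1, a trypsinogen, lay at 14.4, 6.45, 9.66 and 8.80 FPKM in controls 1 to 4 and at 15.3, 2.61, 1.55 and 4.53 FPKM in cKO 1 to 4. The elastase gene Cela1 spanned 6.56 to 11.7 FPKM in the controls and 2.52 to 9.25 FPKM in the libraries labelled cKO. Cela3b, another elastase, spanned 6.81 to 14.7 and 1.16 to 12.0 FPKM. In these 3 genes too, control 1 and cKO 1 held the top pair of levels.

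Cela2a, an elastase, lay at 10.4, 4.76, 10.4 and 7.96 FPKM in controls 1 to 4 and at 9.99, 0.579, 1.45 and 3.16 FPKM in cKO 1 to 4. It was the exception to that order, since control 3 came second to control 1. Over the 7 enzymes from Ctrb1 to Cela2a, control 1 and cKO 1 were the top pair for 6, and the lowest library was cKO 3 for 5 and cKO 2 for 2.

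**Figure D1:**
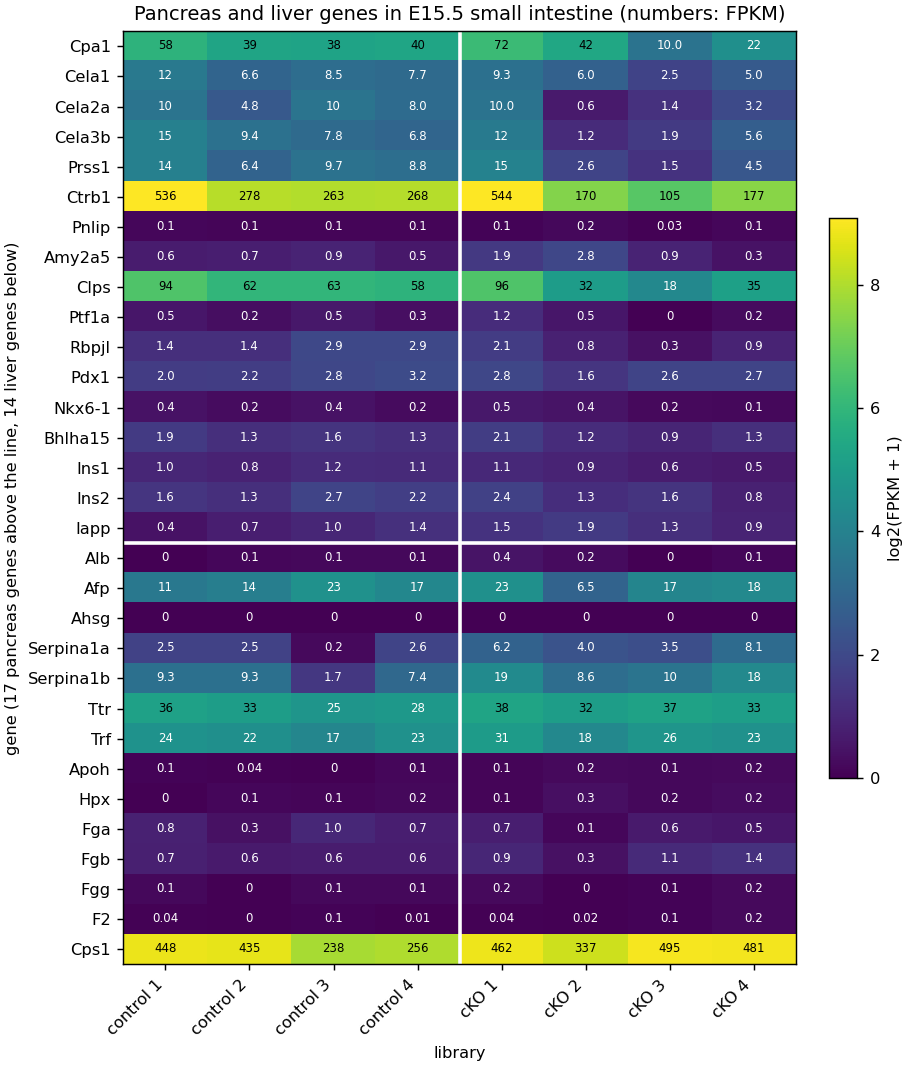
FPKM of the 31 genes (rows) in the 8 libraries (columns), coloured by log2(FPKM + 1) with the FPKM printed in each cell; the horizontal line parts 17 pancreas from 14 liver genes and the vertical line parts the 4 controls from the 4 libraries labelled cKO. Ctrb1 and Cps1 are the brightest rows, and Ahsg is at 0 in every library.

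Reads of all 9 acinar members came to 0.0714%, 0.0397%, 0.0434% and 0.0415% of the library in controls 1 to 4. In cKO 1 to 4 they came to 0.0718%, 0.0276%, 0.0135% and 0.0242%. The share therefore spanned 5.32-fold over the 8 intestines, with the highest and the lowest both among those labelled cKO. In whole tissue, fewer cells of a type and less RNA per cell cannot be told apart.

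The enzymes kept their proportions to different degrees. Clps lay at 16.9 to 24.0 FPKM for each 100 FPKM of Ctrb1, a 1.42-fold range over the 8 libraries, and Cpa1 at 9.49 to 24.7, a 2.60-fold range. Cela2a lay at 0.341 to 3.94 FPKM for each 100 of Ctrb1, an 11.6-fold range, with cKO 2 lowest. Relative to 100 FPKM of Cela2a, Cpa1 stood at 7248 in cKO 2 and at 367 to 816 in the other 7 libraries. That library rests on 18 reads of Cela2a and 35 of Cela3b, and also had the low enterocyte genes given above, whose part in this was not tested.

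The members Amy2a5 and Pnlip did not have the levels of the other acinar members. Pnlip, pancreatic triglyceride lipase, lay at 0.0270 to 0.151 FPKM on 1 to 6 reads per library. Amy2a5, a pancreatic amylase, lay at 0.615, 0.677, 0.854 and 0.514 FPKM in controls 1 to 4 and at 1.86, 2.80, 0.866 and 0.350 FPKM in cKO 1 to 4, highest in cKO 2 where Cela2a was lowest. The table lists near-identical amylase copies, and Amy2a1, with a listed length of 890 bases, stood at 7.66 to 123 FPKM with control 3 highest. How reads were split between copies in the authors' counting is unknown here, so the levels of single amylase genes are uncertain.

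**Figure D2:**
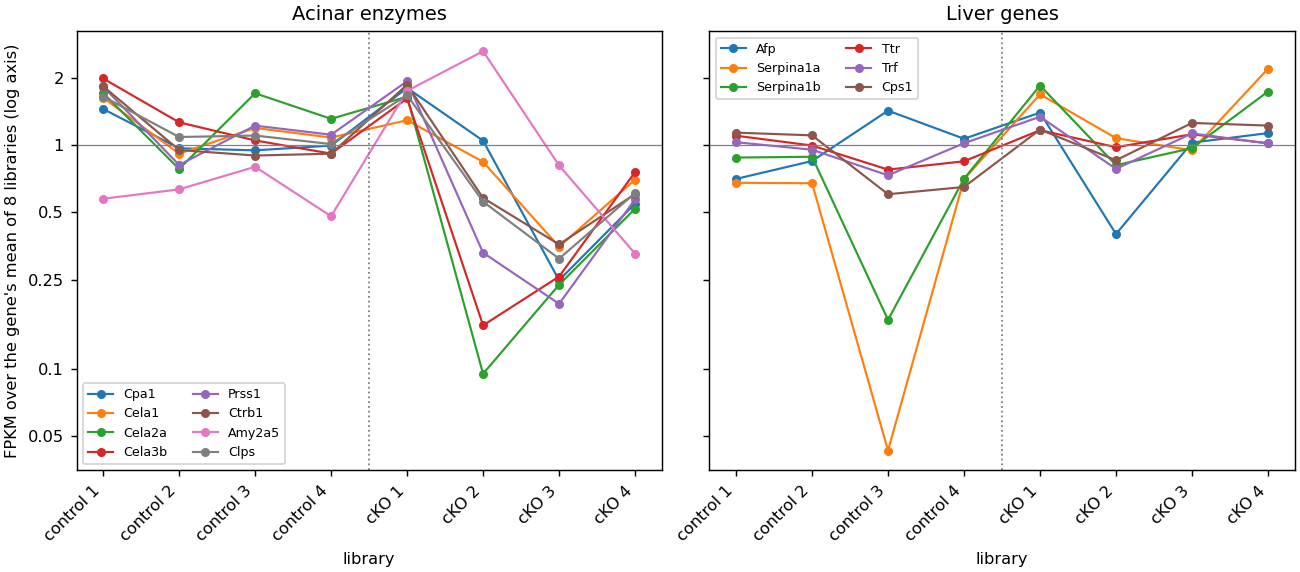
FPKM over the gene's own mean of 8 libraries (log axis) for the 8 acinar enzymes (left) and 6 liver genes (right) averaging 1 FPKM or more; each line is a gene, and the dotted line parts controls from libraries labelled cKO. Left, 7 enzymes are high in control 1 and cKO 1 while Amy2a5 peaks in cKO 2; right, Serpina1a and Serpina1b drop in control 3 and Afp is lowest in cKO 2.

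The transcription factors were low. Rbpjl, the acinar partner subunit of the PTF1 complex, lay at 1.35, 1.36, 2.88 and 2.92 FPKM in controls 1 to 4 and at 2.10, 0.783, 0.321 and 0.878 FPKM in cKO 1 to 4. Bhlha15, which shapes the secretory apparatus of acinar cells, spanned 1.31 to 1.89 FPKM in the controls and 0.916 to 2.14 FPKM in the libraries labelled cKO. Its order at both ends was that of Ctrb1: cKO 1 and control 1 highest, cKO 3 lowest. Ptf1a, which specifies pancreas, spanned 0 to 1.22 FPKM on 0 to 29 reads, with cKO 1 highest and cKO 3 without a read.

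Pdx1, a factor of pancreas and duodenum, had the narrowest range of the 5 relative to its level. It lay at 2.04, 2.17, 2.79 and 3.18 FPKM in controls 1 to 4 and at 2.82, 1.62, 2.64 and 2.68 FPKM in cKO 1 to 4, a 1.97-fold range. Nkx6-1, a factor of beta cells, spanned 0.148 to 0.504 FPKM on 8 to 25 reads. All 5 factors had overlapping groups.

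Islet hormones stood near 1 FPKM. Ins2 (insulin 2) spanned 0.794 to 2.67 FPKM, Ins1 (insulin 1) 0.545 to 1.16 FPKM, and Iapp (islet amyloid polypeptide) 0.367 to 1.93 FPKM. The counts behind them were 18 to 60, 10 to 21 and 6 to 34 reads per library, so their order across libraries is weakly resolved. Iapp was highest in cKO 2 and lowest in control 1. Of 20 further islet and endocrine genes, 12 averaged 1 FPKM or more, among them Chgb (a secretory granule protein), Gcg (proglucagon) and Chga, genes that enteroendocrine cells or other gut cells also use. Gcg lay at 3.37 to 14.2 FPKM and Chgb at 23.2 to 32.9 FPKM.

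Of the 9 plasma proteins, 4 (Alb, Ahsg, Apoh and Hpx) were at or near 0 and 5 averaged 1 FPKM or more. Alb, serum albumin, lay at 0, 0.107, 0.150 and 0.145 FPKM in controls 1 to 4 and at 0.378, 0.213, 0 and 0.124 FPKM in cKO 1 to 4, on 0 to 14 reads. Ahsg (fetuin A) had 0 reads in all 8 libraries, which by a floor of 3 reads allows up to 0.0864 FPKM in the library where a read counts most. Apoh stayed at or under 0.182 FPKM and Hpx (hemopexin) at or under 0.296 FPKM. The 4 clotting genes averaged under 1 FPKM as well. F2 (prothrombin) reached 0.176 FPKM and Fgg 0.181 FPKM at most. Fga and Fgb averaged higher than these, spanning 0.129 to 1.03 FPKM and 0.320 to 1.43 FPKM. Fga, Fgb and Fgg encode the 3 chains of fibrinogen.

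Afp, alpha-fetoprotein, lay at 11.5, 13.8, 23.2 and 17.3 FPKM in controls 1 to 4 and at 22.7, 6.51, 16.7 and 18.4 FPKM in cKO 1 to 4. It lies at chr5:90638596-90656766 on the plus strand (GRCm39), 14134 bases from Alb at chr5:90608756-90624461. Afp had 396 to 1334 reads per library where Alb had at most 14, and cKO 2 was its lowest library. Both are secreted by fetal hepatocytes, and here they were present at very different levels in every library.

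Ttr, the thyroxine and retinol carrier transthyretin, varied least among the liver genes averaging 1 FPKM or more, at 36.1, 32.6, 25.4 and 27.7 FPKM in controls 1 to 4 and 38.2, 32.0, 36.6 and 33.4 FPKM in cKO 1 to 4. Trf, the iron carrier transferrin, spanned 16.9 to 23.7 FPKM in the controls and 18.0 to 30.8 FPKM in the libraries labelled cKO. Both were lowest in control 3, and both had overlapping groups.

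Serpina1a and Serpina1b encode antitrypsin, an inhibitor of neutrophil elastase. Serpina1a lay at 2.50, 2.49, 0.160 and 2.60 FPKM in controls 1 to 4 and at 6.22, 3.96, 3.50 and 8.09 FPKM in cKO 1 to 4. Serpina1b lay at 9.25, 9.32, 1.74 and 7.44 FPKM in controls 1 to 4 and at 19.4, 8.56, 10.2 and 18.2 FPKM in cKO 1 to 4. Control 3 was far below every other library for both. The groups of Serpina1a did not overlap, which held for 1 of 19 members averaging 1 FPKM or more and for 15.4% of all 14220 genes at that level.

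Since Serpina1 copies are near-identical, their reads were also summed over the 5 listed genes of the family. The sums were 624, 600, 84 and 642 reads in controls 1 to 4 and 1574, 652, 768 and 1606 reads in cKO 1 to 4. Control 3 was low in the sum too, whichever listed copy its reads had been assigned to. Without regard to control 3, the sums of cKO 2 and cKO 3 came close to those of controls 1, 2 and 4.

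Cps1, the mitochondrial carbamoyl phosphate synthetase that opens the urea cycle, was the most abundant member and ranked 62 among all genes; it maps to chr1:67162185-67270418 (GRCm39, plus strand). Its level lay at 448, 435, 238 and 256 FPKM in controls 1 to 4 and at 462, 337, 495 and 481 FPKM in cKO 1 to 4. Controls 3 and 4, which also had more genes detected, were lowest, and controls 1 and 2 lay within the range of the libraries labelled cKO. Otc, the next enzyme of the same cycle, lay at 13.1 to 27.2 FPKM. Arg1, the arginase of the hepatic cycle, lay at 0.963 to 1.88 FPKM.

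Co-variation was measured as the correlation of log2(FPKM + 1) over the 8 libraries, with exact 2-sided permutation p-values adjusted by the Benjamini-Hochberg method over 171 pairs of the 19 members that averaged 1 FPKM or more. Pancreas genes varied together in 18 of 78 pairs, liver genes in 3 of 15, and a pancreas with a liver gene in 1 of 78, all with positive correlation. By Spearman's rho none of the 171 pairs passed the adjusted threshold, the smallest adjusted p being 0.0545; unadjusted, 29 pairs by rho and 40 by r had a permutation p under 0.05. A Pearson r of at least 0.8 was reached by 30.8% of pancreas pairs, 26.7% of liver pairs and 1.28% of pancreas and liver pairs, against 4.35% of all pairs of tested genes.

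Among the 7 acinar enzymes from Ctrb1 to Cela2a, the median r over 21 pairs was 0.898, with a range of 0.588 to 0.976, and 14 pairs passed. Ctrb1 with Clps gave r = 0.976 and rho = 0.929, with adjusted permutation p-values of 0.0148 and 0.0545, and r = 0.961 without the 2 libraries farthest from the median of Ctrb1. Prss1 with Clps gave r = 0.976 and rho = 0.976, with adjusted permutation p-values of 0.0148 and 0.0545, and r = 0.947 without the 2 farthest. Cpa1 with Cela1 gave r = 0.933 (adjusted permutation p = 0.0228), and 0.830 without the 2 farthest. Bhlha15 varied with 4 of these enzymes, most closely with Ctrb1 at r = 0.942 (adjusted permutation p = 0.0228), and 0.855 without the 2 farthest. The 7 correlations of Amy2a5 with these enzymes ran from -0.43 to 0.32, and none passed.

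With group means removed, the same 21 pairs had a median r of 0.883 and a range of 0.503 to 0.983. None of the 171 pairs passed when permuted within groups, where the smallest p the design allows is 0.00174. Without control 1 none of the 22 pairs passed either, though each of them kept an r of at least 0.820. Leaving out control 3, cKO 1, cKO 3 or cKO 4 left 11, 5, 3 and 9 pancreas pairs, leaving out controls 3 and 4 left 4, and leaving out cKO 2 gave 24.

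**Figure D3:**
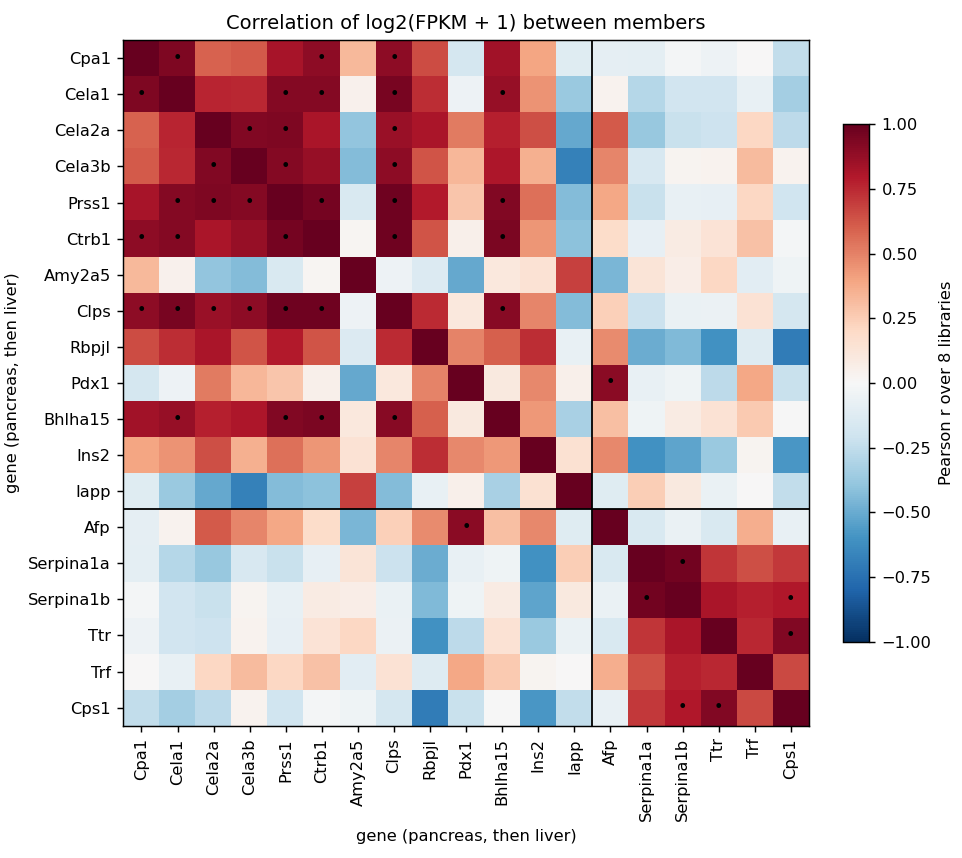
Pearson r of log2(FPKM + 1) over 8 libraries for each pair of the 19 genes averaging 1 FPKM or more, red for positive and blue for negative; dots mark pairs with an adjusted permutation p under 0.05, and black lines part pancreas from liver genes. The red blocks are the acinar enzymes other than Amy2a5 with Bhlha15 and Rbpjl, and the liver genes other than Afp. Between those enzymes and those liver genes the field is pale, with r from -0.38 to 0.32. Over all pairs of a pancreas and a liver gene, r ran from -0.701 (Rbpjl with Cps1) to 0.905. The highest, Pdx1 with Afp, is the 1 dotted pair there.

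The 5 liver genes other than Afp had r of 0.644 to 0.968 over their 10 pairs. Ttr with Cps1 gave r = 0.928 and rho = 0.881 (adjusted permutation p = 0.0228 and 0.0728), and r = 0.610 without the 2 farthest libraries. Serpina1b with Cps1 gave r = 0.802 and rho = 0.881 (adjusted permutation p = 0.0228 and 0.0728), and r = 0.644 without the 2 farthest. The pair Serpina1a and Serpina1b gave r = 0.968 (adjusted permutation p = 0.0254), with reads that may be shared between the copies. No liver pair passed without control 1 or without control 3, and 1 did without control 4 or without cKO 3. Afp stood apart from them, with r from -0.15 to 0.37 against the other 5. Among the members it varied with Pdx1 alone, at r = 0.905 and rho = 0.833 (adjusted permutation p = 0.0254 and 0.120). Without the 2 libraries farthest from the median of Pdx1 that r was 0.574, and the pair did not pass without control 1, without control 2 or without any single library labelled cKO. Of these, cKO 2 was the lowest library for both genes.

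Between the 7 acinar enzymes and the 5 liver genes, the 35 correlations ran from -0.38 to 0.32 with a median of -0.08, and none passed. Ctrb1 and Cps1 show it: control 1 and cKO 1 had the most Ctrb1 and cKO 3 the least, while all 3 lay between 448 and 495 FPKM for Cps1. With group means removed, the same 35 correlations ran from -0.08 (Cpa1 with Cps1) to 0.68 (Cela3b with Trf). Only Cpa1 and Cela1 with Cps1 then lay below 0, and none passed. The pooled values therefore also carry the differences between the groups. A p that misses the threshold with 8 libraries does not show that the levels are unrelated.

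**Figure D4:**
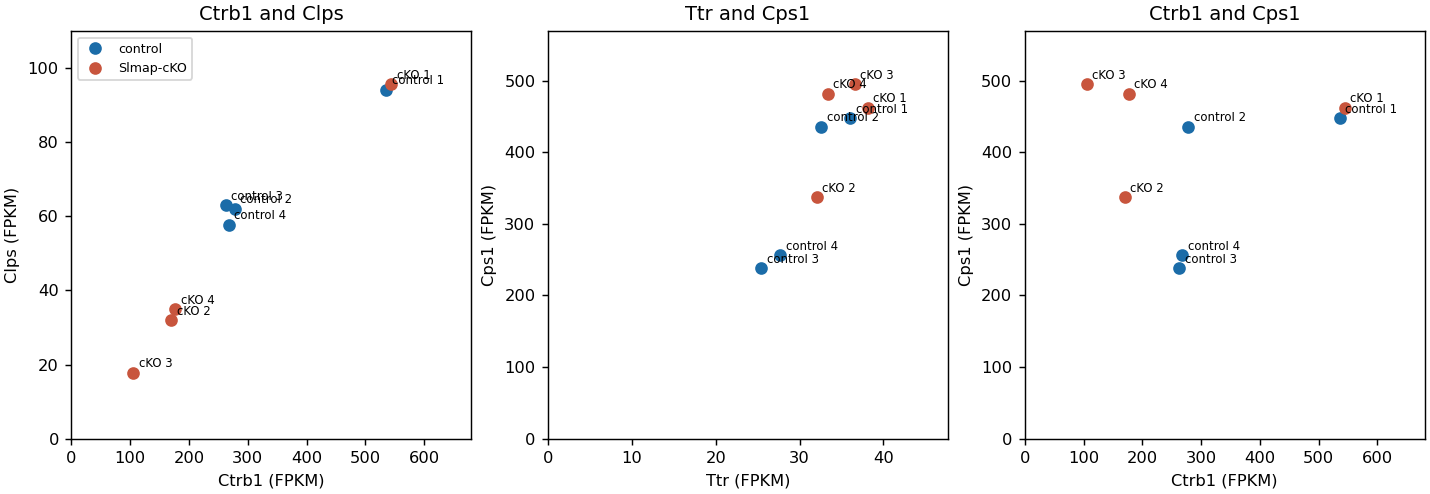
FPKM of Ctrb1 against Clps (left), Ttr against Cps1 (middle) and Ctrb1 against Cps1 (right), each point a library, blue for controls and red for libraries labelled cKO. The points rise together in the left and middle panels, with r of 0.976 and 0.928 on the log2 scale, and follow no common line on the right.

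Each member was also set against Vil1, an actin-bundling protein of the intestinal brush border, and Cpa1 as a marker of acinar tissue, in 37 comparisons adjusted together. No member passed with Vil1. The nearest were Trf at r = 0.744 and rho = 0.595 (adjusted permutation p = 0.225 and 0.612) and Cps1 at r = 0.669 and rho = 0.881 (adjusted permutation p = 0.337 and 0.198). Without the 2 libraries farthest from the median of Vil1, r was 0.892 for Cps1, 0.884 for Ttr, 0.808 for Trf, 0.811 for Serpina1a and -0.10 for Afp. Over all 8 libraries Afp had r = 0.635 and rho = 0.262 with Vil1 (adjusted permutation p = 0.354 and 0.862). The 7 acinar enzymes had r with Vil1 from -0.37 to 0.36. With Cpa1, 3 members passed, Cela1, Clps and Ctrb1, at adjusted permutation p-values of 0.0422 to 0.0456. Cpa1 is itself a member, so these pairs are the same as among the member pairs above and add no separate result. An r of at least 0.8 with Cpa1 was held by 0.767% of the other tested genes, and with Vil1 by 3.79%.

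Genes outside the 31 place these patterns. Of 15 further acinar genes averaging 1 FPKM or more, 5 had an r of at least 0.8 with Cpa1, 8 with Ctrb1 and 0 with Vil1. Pnliprp1, a pancreatic lipase-related protein, followed Ctrb1 at r = 0.975 and Cel, the bile salt-dependent lipase, at r = 0.981, while Spink1 (a trypsin inhibitor) and Nr5a2 had r of 0.305 and -0.31 with it. Pnliprp1 lay at 165, 87.6, 108 and 104 FPKM in controls 1 to 4 and at 205, 71.5, 34.0 and 57.0 FPKM in cKO 1 to 4, the order of Cpa1 at both ends. Among the 20 tested genes nearest to Ctrb1, 9 were on the acinar lists, with the members Clps, Prss1 and Cela1 among these. Of those nearest to Cpa1, 6 were, with the members Cela1, Clps and Ctrb1 among them. Of the 20 nearest to Afp, 2 were on the gut epithelium list, Slc15a1 at r = 0.979 and Cdhr5 at r = 0.977, and 0 on the acinar lists. The gut list held 0 of the 20 nearest to Cps1 and 0 of those nearest to Vil1. These rankings were not tested.

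Among 28 further hepatocyte genes, 11 averaged 1 FPKM or more, led by Fabp1, Apoc3, Otc and Serpina6, and 17 did not. Fabp1 (a fatty acid binding protein) and Apoc3 (an apolipoprotein) are also enterocyte genes, and Otc had r = 0.902 with Vil1. The other hepatocyte genes over that level included Gc, the vitamin D binding protein, and Vtn (vitronectin), named here after their values were seen. Gc had r = 0.889 with Ctrb1 and 0.0847 with Cps1, and Vtn had r = 0.895 and 0.228. They were the 2 of 11 with an r of at least 0.8 with Ctrb1, and the others ran from -0.02 (Otc) to 0.631 (Serpina6). Tat had no read in any library. Of genes used for spleen and gallbladder, Tlx1 reached 0.195 FPKM in 1 library and was at 0 in 7, Nkx3-2, which gut mesenchyme also expresses, lay at 1.31 to 4.33 FPKM, and Sox17 lay at 1.42 to 2.48 FPKM.

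For the comparison of genotypes, limma was run on log2(FPKM + 1) over all 14220 genes averaging 1 FPKM or more. None of the 19 members tested passed an adjusted p of 0.05 in either direction. The other 12 members, 4 pancreas and 8 liver genes, lay below the level tested. Of all tested genes 2 passed, which is 0.0141%. An unadjusted p under 0.05 was reached by 4 of 19 members, 2 above and 2 below the controls in the libraries labelled cKO, close to the 22.5% of all tested genes. Differences below are those of log2(FPKM + 1), so changes of genes near 1 FPKM appear smaller than they are.

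Of the 8 acinar enzymes tested, 7 had differences below 0 and the median was -0.75, against -0.0016 for all tested genes. Cela2a stood at 8.36 ± 2.66 FPKM in controls and 3.79 ± 4.27 FPKM in libraries labelled cKO (SD, n = 4 each), a limma difference of -1.31 with an adjusted p of 0.196. Ctrb1 stood at 336 ± 133 and 249 ± 199 FPKM, a difference of -0.65 with a 95% interval from -1.71 to 0.41 and an adjusted limma p of 0.444. Cpa1 had a difference of -0.56 with an interval from -1.71 to 0.58. Both intervals span 0, and cKO 1 was the highest library for both genes and cKO 3 the lowest. Amy2a5 was the enzyme above 0, at 0.46. Among 15 further acinar genes 11 were below 0, the median was -0.62, and 0 passed.

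Rbpjl stood at 2.13 ± 0.889 FPKM in controls and 1.02 ± 0.759 FPKM in libraries labelled cKO (SD, n = 4 each), a limma difference of -0.66 with an adjusted p of 0.219. Pdx1 and Bhlha15 differed by -0.05 and -0.10, with intervals from -0.40 to 0.30 and from -0.47 to 0.27. Ins2 differed by -0.26 and Iapp by 0.39, and neither passed.

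Of the 6 liver genes tested, 5 had differences above 0. Serpina1a stood at 1.94 ± 1.19 FPKM in controls and 5.44 ± 2.13 FPKM in libraries labelled cKO (SD, n = 4 each), a limma difference of 1.21 with an adjusted p of 0.127. Serpina1b stood at 6.94 ± 3.57 and 14.1 ± 5.51 FPKM, a difference of 1.02 with an adjusted limma p of 0.218. Cps1 stood at 344 ± 113 and 444 ± 72.4 FPKM, a difference of 0.41 with an interval from -0.13 to 0.95, and without controls 3 and 4 it was -0.0088. Afp, at 16.4 ± 5.09 and 16.1 ± 6.86 FPKM, differed by -0.11 with an interval from -0.90 to 0.69. Without controls 3 and 4 and cKO 2, Afp was the 1 member to pass, at 0.56 with an adjusted limma p of 0.0331, in a fit where 29.8% of all tested genes passed.

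**Figure D5:**
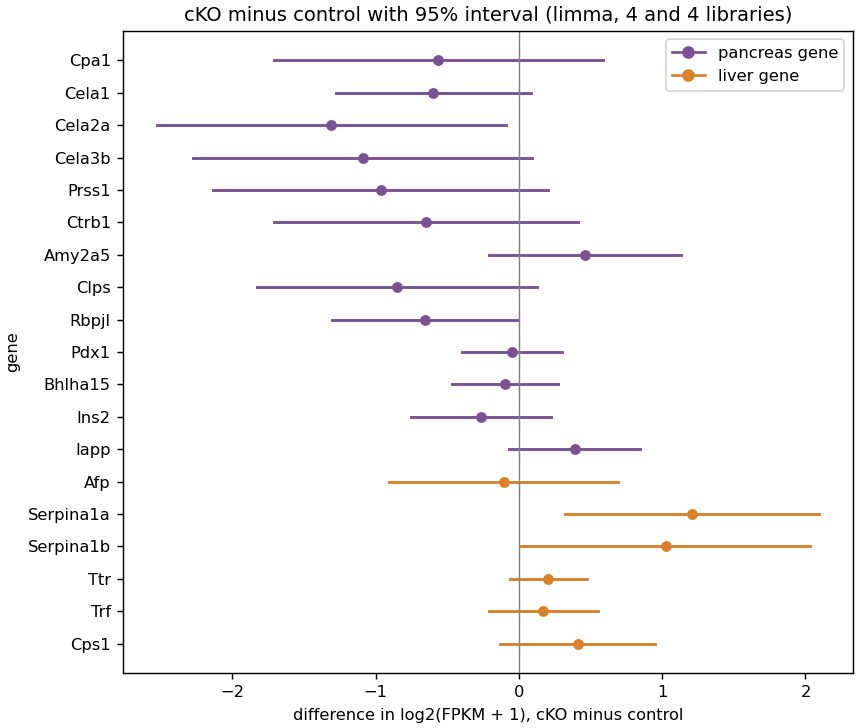
Difference in log2(FPKM + 1), libraries labelled cKO minus controls, for the 19 genes tested, with the limma estimate as a point and its 95% interval as a line (4 libraries per group), purple for pancreas and orange for liver genes. Acinar enzymes other than Amy2a5 lie left of 0 with wide intervals, antitrypsin genes lie right of it, and none passed an adjusted p of 0.05.

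None of the genes tested in the further lists passed. Their median differences were -0.11 over 12 islet genes, -0.06 over 11 hepatocyte genes, -0.06 over 19 gut epithelium genes, -0.05 over 5 bile duct and gallbladder genes, 0.28 over 7 erythroid genes and -0.06 over 5 yolk sac endoderm genes. Of the spleen list 1 gene was tested, Nkx3-2, at -0.56, and of the stomach list 0. The summed erythroid level was 356 to 1037 FPKM in controls and 512 to 1097 FPKM in libraries labelled cKO.

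By the median of each kind of member, spread between intestines was largest for the acinar enzymes. Among the pancreas transcription factors tested, the SD of log2(FPKM + 1) was 0.219 for Pdx1, 0.226 for Bhlha15 and 0.556 for Rbpjl. The first pair of these lay near the median of all tested genes, and Rbpjl did not. On this scale the spread of genes near 1 FPKM, like their differences, appears smaller than it is. The SD of log2(FPKM + 1) over the 8 libraries had a median of 0.831 for the acinar enzymes, 0.552 for the liver plasma proteins and 0.226 for the pancreas transcription factors, against 0.197 for all tested genes. Acinar RNA beside gut RNA, or expression by gut cells themselves, was not tested as a source: the labels do not describe how pancreas and liver were parted from the gut.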

How the data were processed

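RNA-seq was made from whole small intestines of 8 embryos; the tools were fastp, HISAT2, featureCounts, CASAVA and DESeq2 1.20.0, with GRCm39 as build and no roles given, per the submitters' processing notes, and the strand setting of the counting is unknown here. FPKM values were deposited by the authors for 55681 genes, with 3 blank lines left out here. FPKM times gene length, divided by the value of 1 read in each library, gave whole numbers within 0.01 for 100% of values, and these are the reads quoted. Floors are 3 reads and cover counting error only, while intervals on differences are limma's, from the spread between libraries. The implied totals are 0.969 to 1.09 times the summed reads, a scaling the labels do not describe.

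Genotypes were compared 2-sided on log2(FPKM + 1) with limma 3.58.1 (R 4.3.3; trended prior variance) for 14220 genes averaging 1 FPKM or more, with Benjamini-Hochberg adjustment and a threshold of 0.05. Correlations used numpy 2.4.6 with exact permutation over all pairings of 8 libraries. Separate embryos are stated, litters are not, so p-values rest on the variation among these embryos. Albumin had been planned as another anchor of the correlations but lay under the level needed.

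The 31 members and the 9 further gene lists were chosen with earlier results of these data known. Text names all members, the 4 most abundant genes of each further list where they bear on a result, and Slmap; others named were chosen after their values were seen. Computations were tested on simulated data with known changes. Alternatives were the pseudocount, filter, scaling, variance model, replicate block, term for numbers, gene type, group means, and libraries left out. Promoter sequences are from RefSeq on GRCm38.p6, matched by symbol for 26 members; Clps, Ins2, Ttr, Trf and Cps1 are named only.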

Additional observations from a re-analysis of the deposited data

Results flagged for a closer look

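In groups of 4, a library far from the other 3 was looked for in 38 groups (19 genes in 2 groups), and 6 were found; chance marks about 1 in 20 groups. Control 1 stood alone for 3 acinar genes: Cpa1 at 58.1 FPKM against 38.0 to 39.9 in the other controls, Ctrb1 at 536 FPKM against 263 to 278, and Clps at 94.1 FPKM against 57.7 to 63.0. Ctrb1 in cKO 1 stood at 544 FPKM against 105 to 177 in the other libraries labelled cKO. Pdx1 in cKO 2 stood at 1.62 FPKM against 2.64 to 2.82. Serpina1a in control 3 stood at 0.160 FPKM against 2.49 to 2.60 in the other controls.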

How the results depend on the processing

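The count of members past the threshold stayed at 0 in both directions under the alternatives run, limma-voom on recovered reads included, except without controls 3 and 4 and cKO 2, where 1 was higher (Afp). The replicate block gave 0 members and 0 genes in all. The labels do not say that numbers pair libraries, and the libraries were treated as unpaired: deviations of same-numbered libraries correlated at 0.069, 0.326, 0.15 and 0.213, and 3 of 8 libraries correlated best with their own number, so a partial pairing was not settled. Signs turned for Pdx1 (0.011 under quantile normalization, 0.11 with array quality weights, 0.13 without controls 3 and 4, 0.26 without these and cKO 2), for Afp (0.26 with array quality weights, 0.21 without controls 3 and 4, 0.56 without these and cKO 2), for Cps1 (-0.0088 without controls 3 and 4) and for Ins2 (0.010 without controls 3 and 4 and cKO 2). With each library left out in turn, the log2 difference ran from -0.12 to 0.078 for Pdx1, -0.30 to 0.25 for Afp and -0.23 to 0.0038 for Bhlha15. None of these was past the threshold but Afp without the 3 libraries, and the cause was not tested.

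Called pairs (18 pancreas, 3 liver, 1 between) fell to 0, 0 and 0 with group means removed, where fewer permutations are possible. Quantile normalization left 1 liver pair and 0 between, a mean of at least 5 FPKM left 0 between, for which Pdx1 was no longer included, and leaving out controls 3 and 4 left 4 pancreas and 0 liver pairs. With each library left out in turn, pancreas pairs ran from 0 to 24, liver pairs from 0 to 3 and pairs between from 0 to 1, with all 0 without control 1. No called pair turned sign under these settings. At the depths here a gene below 1 FPKM rests on few reads, and the 12 members below that mean carry levels only.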
